A study of Mus musculus with 10 samples.

Results

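The replication-dependent histone genes of the mouse were followed in sorted lung cells from metastases and from normal lung. They were taken as every gene of the count files whose symbol starts with Hist, a cluster number from 1 to 4 and the letter h. This rule found 69 of 24538 genes, chosen by name and not by any measured value. By the cluster number in the symbol, 55 belong to cluster 1 on chromosome 13, 10 to cluster 2 on chromosome 3, 3 to cluster 3 on chromosome 11, and 1, Hist4h4, to cluster 4 on chromosome 6. Of the 55, 54 lie in chr13:21715763-23934851 (GRCm38), and Hist1h2al, a pseudogene at 0 in every library, lies apart at chr13:51202727-51203065. By type, 6 encode the linker histone H1, and 19 H2A, 19 H2B, 12 H3 and 13 H4 genes make up the core histones; 2 of the 69 are annotated as processed pseudogenes.

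The metastasis group held 5 libraries of cells from lung metastases under 1 mm in diameter. These had grown in wild-type C57BL6/J females after a tail vein injection of the mammary tumour line E0771-LG at 6 to 8 weeks of age, and nodules of 2 to 4 mice were pooled for each sample. The normal lung group held 5 libraries of cells from lungs of wild-type C57BL6/J mice; the labels do not say whether these mice received an injection. Every sample of both groups has an age label of 8 to 10 weeks, was digested with the transcription inhibitors alpha-amanitin and actinomycin D for 30 min at 37 °C, and was sorted as live CD31+/CD45- cells. CD31 is a surface protein of endothelial cells and CD45 one of leukocytes. Total RNA was made into libraries with the Ovation RNA-Seq V2 kit. The libraries counted 21677429 to 54266459 fragments on genes in metastases and 41004704 to 79710581 in normal lung.

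Replication-dependent histone genes supply the histones that package newly copied DNA, and most of their mRNA is made in S phase. As a rule they have no introns, and their mRNAs normally end just past a conserved stem-loop in place of a poly(A) tail. The stem-loop is bound by the protein SLBP, and the U7 small nuclear ribonucleoprotein guides the cut that forms the end. Some members also make a longer, polyadenylated transcript, and Hist1h1c, Hist1h2bc, Hist2h2be and Hist4h4 are known for it in differentiated cells.

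The stem-loops are shown first, because they define how these transcripts end and because the annotated stretch beyond them differs widely between members. A stem of 6 bases starting with GG, a loop of 4 bases and the exact complement of the stem were searched for in the first 100 bases after the stop codon of the GENCODE M21 transcripts (build GRCm38). Of the 52 members with at least 30 annotated bases there, 46 held such a stem-loop (88.5%), against 80 of 20936 other genes (0.382%). Hist1h2bc and Hist2h2be, the most counted H2B genes, held none, although annotated over 742 and 2192 bases after the stop codon. The median distance of the stem-loops found from the stop codon was 31 bases. Capitals mark both arms of the stem, and the loop lies between them.
Hist1h1c: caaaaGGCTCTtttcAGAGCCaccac
Hist1h1e: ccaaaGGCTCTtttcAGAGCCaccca
Hist2h2ac: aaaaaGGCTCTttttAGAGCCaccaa
Hist1h2bh: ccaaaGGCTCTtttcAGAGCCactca
Hist1h3d: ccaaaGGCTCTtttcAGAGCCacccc
Hist1h3e: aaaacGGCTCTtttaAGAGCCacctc
Hist1h4d: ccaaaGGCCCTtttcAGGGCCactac
Hist2h4: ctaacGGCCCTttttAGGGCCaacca
The stem of the H1, H2A, H2B and H3 members shown reads GGCTCT and that of the H4 members GGCCCT. Over all 46, 34 had the first form, 0 of them H4 genes, 10 had the second and 2 had GGTCCT. The loop read tttc in 35.

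The coding starts of H4 genes show how alike the copies are that the counting had to tell apart. The first 60 coding bases of 4 of the 13 H4 genes follow, with bases that differ from Hist1h4d in capitals.
Hist1h4d: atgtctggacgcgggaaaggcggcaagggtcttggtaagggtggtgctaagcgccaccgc
Hist2h4: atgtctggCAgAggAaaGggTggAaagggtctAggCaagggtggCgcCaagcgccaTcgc
Hist1h4m: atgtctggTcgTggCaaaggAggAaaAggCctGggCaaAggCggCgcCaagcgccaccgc
Hist1h4n: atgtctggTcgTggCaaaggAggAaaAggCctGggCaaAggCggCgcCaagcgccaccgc
Hist1h4m and Hist1h4n do not differ from each other in this stretch. Over the whole coding sequence of 312 bases, Hist2h4 was 89.7% and Hist1h4m 93.6% identical to Hist1h4d. As a measure of this likeness, each transcript was cut into all its stretches of 100 bases, the read length, and the share found in no gene elsewhere was taken. That share was 100% for Hist1h4d, Hist2h4 and Hist2h2bb, 94.9% for Hist1h1c and 74.6% for Hist1h2bc. It was 7.83% for Hist1h2ap, which shares most of its stretches with Hist1h2ao, and 0% for Hist2h2aa2. Fragments that align to several places were set aside in the authors' counting (10.5 to 13.6% in metastases and 9.37 to 11.1% in normal lung), so the counts of members with few stretches of their own are uncertain.

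Promoters are shown for the members on which the comparison and the paired genes described further on turn. The sequences are RefSeq's (GRCm38.p6), 250 bases before to 50 after the start, and 61 of the 69 members had one. Capitals mark 4 motifs found on either strand: the octamer ATTTGCAT, which is bound by Oct-1, the TATA box as TATAAA, the CCAAT box as CCAAT, and the H1 box as AAACACA. In no member's window did matches of different motifs overlap.
Hist2h2bb (chr3:96269450-96269749, plus strand): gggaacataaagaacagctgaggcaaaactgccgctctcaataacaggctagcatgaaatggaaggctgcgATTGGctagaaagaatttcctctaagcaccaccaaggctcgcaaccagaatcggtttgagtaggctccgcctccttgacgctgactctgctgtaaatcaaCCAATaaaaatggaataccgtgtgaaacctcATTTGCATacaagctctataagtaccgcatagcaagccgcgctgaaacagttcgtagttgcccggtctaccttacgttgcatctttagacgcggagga
Hist1h1c (chr13:23738557-23738856, plus strand): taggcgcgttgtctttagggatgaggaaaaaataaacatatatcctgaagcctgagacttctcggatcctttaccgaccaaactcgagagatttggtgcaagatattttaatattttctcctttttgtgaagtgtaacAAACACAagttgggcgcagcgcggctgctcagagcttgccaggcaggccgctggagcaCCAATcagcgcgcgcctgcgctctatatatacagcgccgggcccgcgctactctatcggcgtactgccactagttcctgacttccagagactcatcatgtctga
Hist1h2ak (chr13:21753863-21754162, minus strand): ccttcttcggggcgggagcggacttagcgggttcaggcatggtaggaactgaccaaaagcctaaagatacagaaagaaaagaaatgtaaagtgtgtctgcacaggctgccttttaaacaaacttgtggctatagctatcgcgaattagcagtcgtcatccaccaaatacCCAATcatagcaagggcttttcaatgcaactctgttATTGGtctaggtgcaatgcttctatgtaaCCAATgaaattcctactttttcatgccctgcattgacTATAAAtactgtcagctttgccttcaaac
The octamer was found in 6 of 16 H2B windows (37.5%) and 7 of 17 H2A windows (41.2%), in 0 of the H1, H3 and H4 windows, and in 1.74% of all 32851 RefSeq windows. The H1 box stood in 5 of 6 H1 windows (83.3%), against 7.18% of all windows. CCAAT was present in every window of an H1, H2A, H2B or H3 gene, in 25.0% of H4 windows and in 37.4% of all windows. TATAAA was found in 57.4% of members' windows and 13.6% of all. These are matches of letters, and none of the motifs was tested for binding. An H2A and an H2B gene that face each other share most of a window, so these counts are not independent.

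Few of the histone genes were counted often enough to be tested. In all 10 libraries 20 of 69 members stood at 0, 49 had at least 1 count, and 13 passed the filter on low counts. Of all 24538 genes, 7652 stood at 0 in every library and 11823 passed the filter. The 13 members were 3 H1, 5 H2B, 3 H4 and 2 H3 genes, with 0 of the 19 H2A genes. Of the 13, 10 lie in cluster 1 and 3 in cluster 2. Of the members at 0, 9 of 20 had under 50% of their 100-base stretches to themselves, with a median of 61.6%; of those with a count, 15 of 49 did, with a median of 68.2%. In the authors' FPKM values, which scale fragments by transcript length and depth, 4 of the 20 were above 0.01 in some library. Hist1h2ap, with 7.83% of its stretches to itself, reached 17.2 FPKM. Hist1h2bq, with 5.16%, reached 3.94 FPKM, and Hist2h2aa1, with 4.11%, reached 3.31 FPKM.

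**Figure D1:**
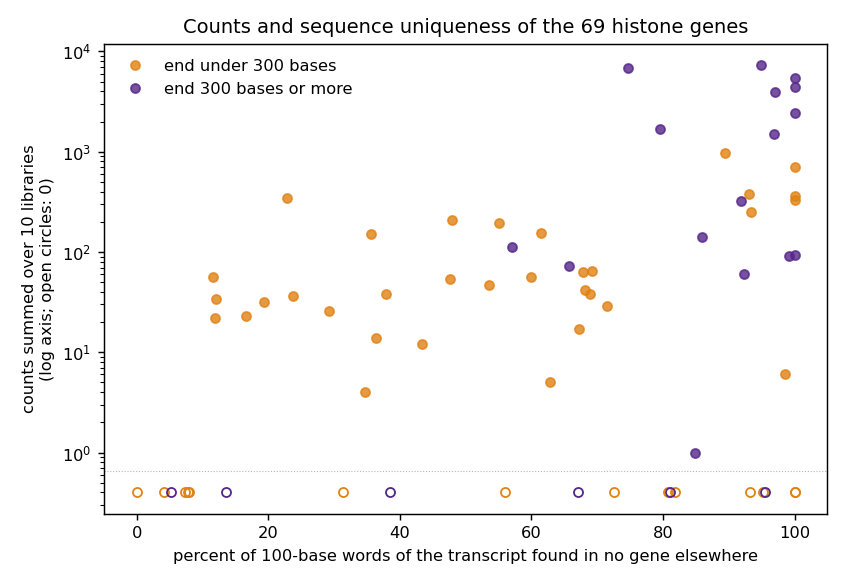
Counts of each of the 69 histone genes summed over the 10 libraries (vertical log axis; open circles below the dotted line stand for 0) against the percentage of its 100-base stretches found in no gene elsewhere (horizontal). Orange marks members whose annotated transcript ends under 300 bases after the stop codon, and purple the 22 that reach 300 bases or more, which hold all 8 members with 1000 counts or more.

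More histone genes were seen in metastases than in normal lung at the same depth, although the groups overlapped. After each library was thinned at random to 21677429 counts, the total of the smallest, 26, 37, 29, 35 and 41 members had a count in metastasis libraries 1 to 5, against 19, 30, 16, 18 and 15 in normal lung libraries 1 to 5. Normal lung library 2, with 30, was above metastasis libraries 1 and 3. Without thinning, 8 members had counts in metastases alone, among them 5 H2A genes, and 1, Hist1h4i with 1 count, in normal lung alone. Neither count was taken over all genes. Whether histone genes differ here from genes in general was therefore not tested. In bulk RNA, more cells that transcribe a gene and more RNA of it per cell cannot be told apart.

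The summed level of all 69 members did not separate the groups. In CPM, counts scaled to library totals adjusted by the TMM method, it was 87.4, 142, 358, 55.7 and 109 in metastases 1 to 5, and 87.7, 48.5, 52.6, 53.7 and 25.0 in normal lung 1 to 5. Metastasis libraries 2, 3 and 5 lay above every normal lung library, and libraries 1 and 4 did not. Means were 151 ± 120 CPM in metastases and 53.5 ± 22.4 CPM in normal lung (SD, n = 5 each). Library 3 of the metastases drew 47.3% of its sum from Hist1h1c, a linker histone gene. With that gene left out the sums ran between 48.5 and 188 CPM in metastases and between 24.3 and 80.7 CPM in normal lung.

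Different genes led the sum in different libraries. Metastasis libraries 4 and 5 were led by Hist2h2be, library 1 by Hist1h1e, library 2 by Hist1h2bc and library 3 by Hist1h1c. Among normal lung libraries, Hist1h4d led in 4 and 5, Hist1h2bc in 2 and 3, and Hist1h1e in 1. The 3 leading members made up 48.5 to 78.6% of the sum in metastases and 58.3 to 92.5% in normal lung. Per transcript length, Hist1h1c and Hist1h4d had the highest means in metastases, 203 ± 361 and 203 ± 225 FPKM (SD, n = 5), and do not differ beyond that spread. The place of Hist1h1c rests on metastasis library 3, with 848 FPKM. Without that library its mean was 42.4 FPKM, below Hist1h4d (106), Hist2h4 (45.3), Hist1h1e (45.1) and Hist1h2bc (43.3 FPKM). In normal lung Hist1h4d stood first with 143 ± 73.7 FPKM and Hist1h2bc second with 30.8 ± 24.8 FPKM (SD, n = 5).

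By type, the medians of the groups lay farthest apart, as a ratio, for H2A. The 19 H2A genes summed to 1.18, 18.1, 1.49, 3.22 and 9.70 CPM in metastases and to 0.566, 1.24, 0.0470, 0.183 and 0.0810 CPM in normal lung. In 4 of 5 metastasis libraries the H2A sum was above every normal lung library, and library 1 fell between. H2B sums were 28.6 to 95.0 CPM in metastases and 8.24 to 30.6 CPM in normal lung, also with 4 of 5 above. H1 sums were 16.3 to 171 CPM in metastases and 1.91 to 29.6 CPM in normal lung, with 2 of 5 above. H3 sums were 0.639 to 42.7 CPM in metastases and 0.0941 to 4.59 CPM in normal lung, with 3 of 5 above. The H4 sums overlapped most, with 6.997 to 47.8 CPM in metastases and 9.43 to 30.7 CPM in normal lung. As a share of the histone sum, which does not depend on the scaling of libraries, H4 held 10.8 to 28.6% in metastases and 19.4 to 57.5% in normal lung. In FPKM the sums of H2A alone lay apart, at 7.32 to 103 in metastases and 0.53 to 5.17 in normal lung. In metastasis library 1, Hist1h2ap, a member at 0 counts, gave 17.2 of the 31.5 FPKM.

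**Figure D2:**
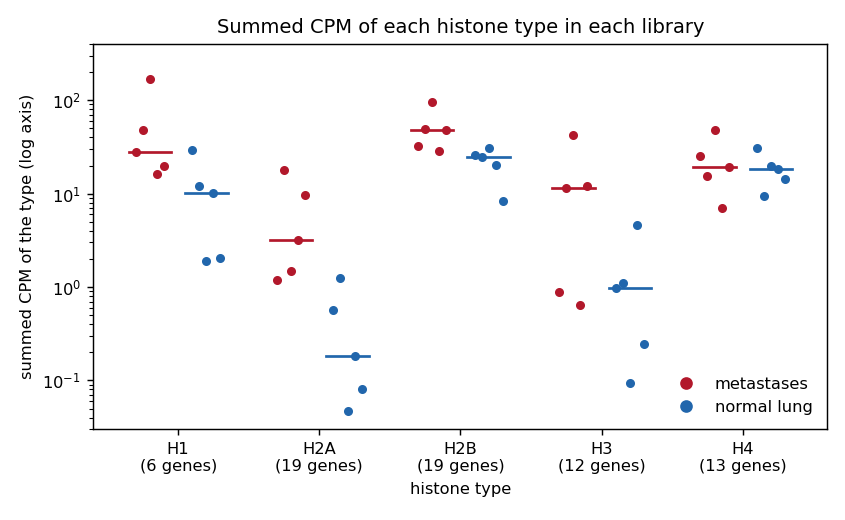
Summed CPM of all members of each histone type (log axis) in the 5 metastasis libraries, left in red, and the 5 normal lung libraries, right in blue; each point is a library and each line a median. H2A medians are 3.22 CPM in metastases and 0.183 CPM in normal lung, and H4 medians 19.5 CPM in metastases and 18.5 CPM in normal lung.

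By cluster, the 55 genes of cluster 1 summed to 38.5 to 338 CPM in metastases and 22.8 to 54.3 CPM in normal lung, with 4 of 5 metastasis libraries above every normal one. For cluster 2 the sums were 17.2 to 31.6 CPM in metastases and 2.16 to 33.3 CPM in normal lung, and normal lung library 1 was the highest of all 10. Cluster 3 was near 0: its single member with a count, Hist3h2a, had 2 counts in metastases and 91 in normal lung, 86 of those in 1 library. Hist4h4 stood at 0 in every library.

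Across the 13 tested members, 2 rose in metastases, Hist2h2bb and Hist1h1c, and 0 fell, by edgeR's quasi-likelihood test at 0.05, with p-values adjusted by Benjamini-Hochberg across 11823 genes. Of all tested genes 12.0% were called higher and 8.22% lower, so 2 of 13 is close to the share of all genes. At an unadjusted edgeR p under 0.05, 4 of the 13 members were higher and 0 lower. Of all 11823 tested genes, 2096 were higher and 1623 lower at that limit. DESeq2 called 0 members lower. DESeq2 called 11 higher of the 30 members it gave an adjusted p, beside 18.3% of all genes. For 0 of the 13 were all metastasis libraries above all normal lung libraries, against 8.50% of all tested genes. The 13 log2 fold changes had a median of 1.60, beside 0.06 for all tested genes. There were 11 positive and 2 negative values, beside 6085 positive and 5738 negative ones over all tested genes. The negative values of Hist1h2be and Hist2h4 changed sign when libraries were scaled to endothelial markers, and that of Hist2h4 also with library totals alone. The 56 untested members are not covered by these counts. When the filter was dropped, 49 members could be tested, of which 39 had positive and 10 negative values. Of these members 2 were called, Hist1h1c and Hist1h2ak, beside 11.5% of all genes called higher and 7.07% called lower. The median log2 fold change of all genes in that fit was 0.07.

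**Figure D3:**
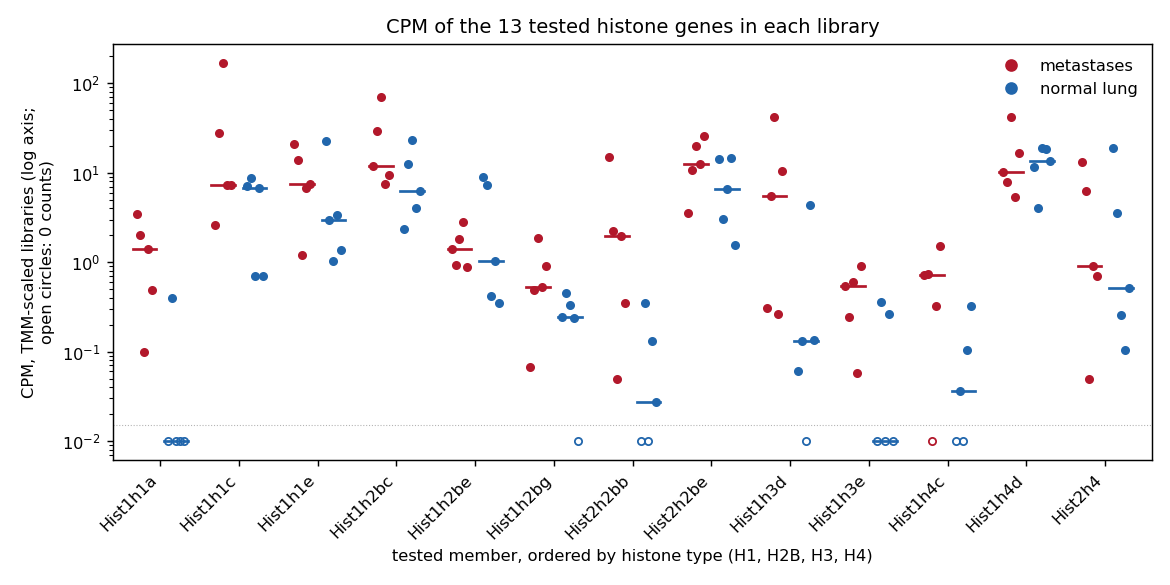
CPM of the 13 tested members in each library (log axis; open circles below the dotted line are libraries with 0 counts), metastases left in red and normal lung right in blue, with lines at the medians. The groups overlap for every gene shown; Hist2h2bb, called higher, has 0.0496 to 14.9 CPM in metastases and 0 to 0.347 CPM in normal lung.

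Hist2h2bb encodes a core histone H2B of cluster 2 (chr3:96269752-96270132, GRCm38) and carries the octamer in the promoter shown above. It had 14.9, 2.23, 0.0496, 1.95 and 0.353 CPM in metastases 1 to 5, against 0, 0.347, 0, 0.130 and 0.0270 CPM in normal lung 1 to 5. In 4 of 5 metastasis libraries it was above every normal lung library, by a narrow margin in library 5, and library 3 lay within their range. The log2 fold change was 5.20 ± 1.85 (SE; edgeR adjusted p = 0.0482). Without metastasis library 1, which is far above the rest, it was 3.43 (edgeR adjusted p = 0.191). The annotation puts another gene model, Gm42743, on the same strand at this place and Gm20628 on the opposite one. Whether the counting used strand is not given in the sources used here. The count of this gene is therefore uncertain.

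Hist1h1c (chr13:23738808-23740367) encodes a linker histone H1 that cells also make outside S phase. Its CPM values were 2.57, 28.0, 169, 7.23 and 7.23 in metastases and 7.03, 8.65, 0.706, 6.68 and 0.702 in normal lung. Libraries 2 and 3 of the metastases were above all normal lung libraries, while the other 3 lay inside the normal range. Its log2 fold change was 3.17 ± 1.13 (SE; edgeR adjusted p = 0.0483). Without metastasis library 3 the value was 1.21 (edgeR adjusted p = 0.522), and without libraries 2 and 3 together it was 0.25, a choice made after seeing the data.

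Both calls were at the edge of the threshold. With a term that sets libraries 1 and 2 of each group apart, both ended (edgeR adjusted p = 0.0832 for Hist1h1c and 0.0660 for Hist2h2bb), and Hist1h1a was called in their place. With limma on FPKM, Hist1h1c was not called at either pseudocount (limma adjusted p = 0.0875 and 0.0886). Hist2h2bb was called at both, and with unfiltered FPKM neither was called. Both calls stayed with DESeq2, with DESeq2's size factors in edgeR, with library totals and with a filter of 10 counts in 5 libraries. Without a filter and after thinning, Hist1h1c alone of the 2 was called. Leaving out any of normal lung libraries 1, 3, 4 or 5 ended both, with edgeR adjusted p between 0.0709 and 0.103, and so did leaving out metastasis library 2 (edgeR adjusted p = 0.0540 for Hist1h1c and 0.0544 for Hist2h2bb). Hist1h1c also lost its call without normal lung library 2 (edgeR adjusted p = 0.0588), and Hist2h2bb without metastasis library 4 (edgeR adjusted p = 0.0586). In libraries 1 and 2 of each group alone, 0 of 16 members tested were called (3.87% of all genes higher), and in libraries 3 to 5 alone 0 of 10 were (9.29%). Those sets are named by their share of counts on the ribosomal precursor gene Rn45s, which was 1.45 and 4.61% in metastases 1 and 2 and 3.51 and 2.83% in normal lung 1 and 2, against 0.647 to 1.24% in metastases 3 to 5 and 0.408 to 0.469% in normal lung 3 to 5. The labels name no batch.

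The remaining H1 members also code for linker histones. Hist1h1a, which shares none of its 100-base stretches with another gene, had 3.49, 2.02, 0.0992, 1.39 and 0.494 CPM in metastases; in normal lung it stood at 0 in 4 libraries and at 0.394 CPM in library 2. Its log2 fold change of 4.14 ± 1.80 (SE) missed the threshold (edgeR adjusted p = 0.111). It passed without normal lung library 2 (edgeR adjusted p = 0.0113), where all normal libraries left are at 0 and the fitted fold is no measure. It also passed with the term for libraries 1 and 2 (edgeR adjusted p = 0.0406), with DESeq2 (adjusted p = 0.0438) and with limma on FPKM (adjusted p = 0.0271 and 0.00556 at the pseudocounts of 1 and 0.1). Hist1h1e had 20.8, 14.0, 1.19, 6.68 and 7.44 CPM in metastases and 22.6, 2.99, 1.04, 3.34 and 1.35 CPM in normal lung, so the highest library of all was a normal one (0.68 ± 1.15, edgeR adjusted p = 0.738). In the annotation used here its transcript overlaps that of Hist1h2be. The untested Hist1h1b and Hist1h1d had 357 and 88 counts in metastases, against 8 and 4 in normal lung.

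Among H2B genes, the most counted were Hist1h2bc and Hist2h2be, both known to make polyadenylated transcripts. For Hist1h2bc the CPM values were 11.9, 29.2, 69.8, 7.49 and 9.48 in metastases and 2.37, 12.4, 23.2, 4.04 and 6.24 in normal lung. The log2 fold change was 1.40 ± 0.95 (SE; edgeR adjusted p = 0.334), and -0.02 without metastasis libraries 2 and 3. Hist2h2be had 3.52, 10.7, 19.8, 12.4 and 25.9 CPM in metastases and 14.1, 3.01, 6.54, 14.8 and 1.57 CPM in normal lung, with 2 metastasis libraries above all normal ones (0.86 ± 1.00, edgeR adjusted p = 0.612). Of the 4 members known for polyadenylated transcripts, 1 of 3 tested, Hist1h1c, was called higher, beside 12.0% of all tested genes, and that call ended without metastasis library 3; Hist4h4 had no counts. Hist1h2be was the tested member with the lowest value, -1.19 ± 1.34 (edgeR adjusted p = 0.596), with 0.881 to 2.82 CPM in metastases and 0.351 to 8.85 CPM in normal lung; FPKM gave it a positive one, 0.52.

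The H3 genes were uneven. Hist1h3d had 0.305, 5.46, 41.8, 0.261 and 10.5 CPM in metastases and 0.0612, 0.132, 0, 4.30 and 0.135 CPM in normal lung. Metastasis libraries 2, 3 and 5 were above all normal ones, and normal lung library 4 was above metastasis libraries 1 and 4. The log2 fold change was 3.66 ± 1.68 (SE; edgeR adjusted p = 0.133). Without normal lung library 4 it was 7.07 (edgeR adjusted p = 0.0143), and without metastasis library 3 it was 2.10, not called. DESeq2 also called this gene (adjusted p = 0.0321), as did limma on FPKM at a pseudocount of 0.1 (adjusted p = 0.0491). Hist1h3e had 0.0581 to 0.917 CPM in metastases and was at 0 in 3 normal lung libraries, with 0.359 and 0.261 CPM in the other two (1.88 ± 1.60, edgeR adjusted p = 0.464).

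For H4, the gene most counted in both groups, Hist1h4d, had 10.2, 7.90, 42.1, 5.40 and 16.6 CPM in metastases and 11.5, 4.00, 18.9, 18.2 and 13.4 CPM in normal lung. Of the metastases, library 3 alone was above the normal range, and the log2 fold change was 0.32 ± 0.91 (SE; edgeR adjusted p = 0.853), or -0.42 without that library. Hist2h4 had 13.1, 6.29, 0.0496, 0.900 and 0.705 CPM in metastases and 19.2, 3.53, 0.259, 0.104 and 0.513 CPM in normal lung. It was highest in libraries 1 and 2 of both groups (-0.17 ± 1.48, edgeR adjusted p = 0.956), and several other settings gave it a positive value. Hist1h4c had 0.711, 0.735, 0, 0.319 and 1.52 CPM in metastases and 0, 0.0359, 0, 0.104 and 0.324 CPM in normal lung (2.82 ± 1.66, edgeR adjusted p = 0.258).

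No H2A gene entered the test, and 2 carried most of the H2A counts. Hist1h2ak had 0.0338, 13.3, 0.794, 0.784 and 1.45 CPM in metastases and 0.0612, 0.0120, 0.0235, 0.157 and 0 CPM in normal lung. Hist2h2ac had 0.169, 3.24, 0, 2.00 and 2.89 CPM in metastases and 0.0766, 0.0239, 0, 0.0261 and 0.0270 CPM in normal lung. In 4 of 5 metastasis libraries each was above every normal lung library, the exceptions being library 1 for Hist1h2ak and library 3 for Hist2h2ac. Without the filter, edgeR gave Hist1h2ak a log2 fold change of 5.87 ± 2.15 (adjusted p = 0.0447) and Hist2h2ac 5.56 ± 2.31 (adjusted p = 0.0740). DESeq2 called both genes higher. Filtered FPKM with limma called Hist2h2ac at a pseudocount of 1 and not at 0.1, and Hist1h2ak at neither. Every one of the 19 H2A genes is overlapped by another gene model on the opposite strand, and without knowledge of strand use these counts are uncertain.

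In 9 places an H2A and an H2B gene face each other so closely that their promoter windows overlap, all of them on chromosome 13. The window of Hist1h2ak printed above shares 263 bases with that of Hist1h2bn. Both genes were highest in metastasis library 2, at 13.3 CPM for Hist1h2ak and 2.48 CPM for Hist1h2bn. Together over libraries, Hist1h2ak and Hist1h2bn had 953 and 200 counts in metastases, against 12 and 8 in normal lung. A second pair, Hist1h2an and Hist1h2bp, had 23 and 34 counts in metastases and 0 and 4 in normal lung. Facing genes did not always share a pattern in these summed counts. Hist1h2ag had 36 counts in metastases, 22 of them in library 1, and 0 in normal lung. Its partner Hist1h2bj had 6 counts in metastases and 50 in normal lung, 48 of those in library 2. For 2 of the 9 pairs, Hist1h2ba with Hist1h2aa and Hist1h2bq with Hist1h2ao, neither gene had a count.

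The groups lay apart for the members whose annotated transcript ends early. This division was made after the values were seen and is a description with no test. The 47 members whose annotation stops under 300 bases after the stop codon summed to 22.2, 37.0, 10.8, 9.49 and 20.0 CPM in metastases 1 to 5, and to 1.73, 4.38, 1.39, 0.757 and 0.216 CPM in normal lung 1 to 5. Every metastasis library was above every normal lung library. Means were 19.9 ± 11.1 CPM in metastases and 1.69 ± 1.61 CPM in normal lung (SD, n = 5 each). Without the 3 members of highest mean CPM, Hist2h2bb, Hist1h2ak and Hist2h2ac, the sums still lay apart, at 4.76 to 18.3 CPM in metastases and 0.162 to 3.99 CPM in normal lung.

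The 22 members annotated over 300 bases or more past the stop codon summed to 65.2, 105, 347, 46.2 and 89.5 CPM in metastases and to 86.0, 44.1, 51.2, 52.9 and 24.8 CPM in normal lung, and those groups overlapped. They held 87.8% of all histone counts and 10 of the 13 tested members, so the test mostly saw these. Limits of 100, 200 and 500 bases also left the sums of short-ended members apart. Those sets, of 38, 44 and 52 members, are nested with the set of 47 and are not independent of it. A limit of 1000 bases, which moves 10 more members across than 300 does, did not leave the sums apart. They were then 30.3 to 334 CPM in metastases and 21.1 to 44.3 CPM in normal lung. In FPKM the short-ended members summed to 28.9 to 155 in metastases and 1.07 to 11.3 in normal lung. As a share of the histone sum they held 3.02 to 26.0% in metastases and 0.865 to 9.02% in normal lung, which overlapped through metastasis library 3. Of the 47, 20 are overlapped by other gene models and 14 had no count.

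**Figure D4:**
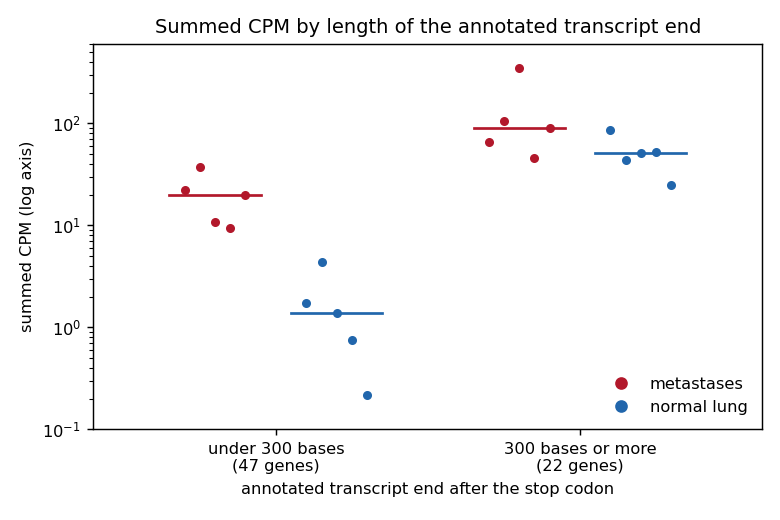
Summed CPM (log axis) of the 47 histone genes whose annotated transcript ends under 300 bases after the stop codon and of the 22 that reach farther, in metastases (left, red) and normal lung (right, blue), with lines at the medians. The short-ended sums are 9.49 to 37.0 CPM in metastases and 0.216 to 4.38 CPM in normal lung; the long-ended sums overlap.

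Of 18 genes that drive histone gene expression or mature the mRNA, 2 rose in metastases and 0 fell, close to the 12.0% of all tested genes called higher and 8.22% called lower; the median log2 fold change was 0.69. Zfp473, a zinc finger protein tied to the U7 particle in human cells, had 0.338, 7.42, 14.6, 8.19 and 14.8 CPM in metastases and 0 to 0.108 CPM in normal lung (7.67 ± 1.75, edgeR adjusted p = 0.00281). Eri1, an exonuclease that binds the stem-loop, had 64.1 to 138 CPM in metastases and 21.1 to 58.8 CPM in normal lung (1.59 ± 0.54, edgeR adjusted p = 0.0379). Slbp, the stem-loop binding protein itself, had 85.3, 40.6, 46.0, 43.5 and 47.2 CPM in metastases and 4.98 to 29.4 CPM in normal lung. All 5 metastasis libraries were above the normal ones for Slbp, and its log2 fold change of 1.99 ± 0.75 (SE) missed the threshold (edgeR adjusted p = 0.0614).

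The other core factors were not called. Npat, the coactivator of histone genes at S phase entry, had 31.8 to 297 CPM in metastases and 73.4 to 131 CPM in normal lung (-0.02 ± 0.57, edgeR adjusted p = 0.986). Casp8ap2, which encodes the processing factor FLASH, averaged 200 ± 99.6 CPM in metastases and 105 ± 35.6 CPM in normal lung (SD, n = 5 each; edgeR adjusted p = 0.167). Lsm10 and Lsm11, proteins of the U7 particle, had log2 fold changes of 0.64 and 0.64 (edgeR adjusted p = 0.784 and 0.732). Cpsf2, a subunit of the cleavage complex, averaged 189 ± 68.1 CPM in metastases and 77.0 ± 45.7 CPM in normal lung (SD, n = 5 each; edgeR adjusted p = 0.0571).

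Of 21 histone chaperones and their partners, which carry histones to DNA, 19 were tested, 6 rose and 0 fell, beside 12.0% of all tested genes called higher and 8.22% lower; the median was 1.25. Chaf1a, the large subunit of the assembly factor CAF-1, averaged 46.9 ± 58.4 CPM in metastases and 2.64 ± 4.17 CPM in normal lung (SD, n = 5 each; log2 fold change 4.15, edgeR adjusted p = 0.0156). Hat1, which acetylates new H4, had 46.5 to 417 CPM in metastases and 3.78 to 34.6 CPM in normal lung (3.54, edgeR adjusted p = 0.00105). Nap1l1, a carrier of H2A and H2B, averaged 226 ± 61.4 CPM in metastases and 29.5 ± 5.55 CPM in normal lung (SD, n = 5 each; 2.94, edgeR adjusted p = 7.6e-05). Ssrp1 and Supt16, both subunits of FACT, and Anp32e, which handles the variant H2A.Z, were the others that rose. Atrx, the most abundant of the list by CPM, had a log2 fold change of 0.23 (edgeR adjusted p = 0.729), and Asf1a, an H3-H4 chaperone, one of -1.51 (edgeR adjusted p = 0.180).

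The histone genes listed here as replication-independent, most of which have introns or poly(A) tails, were mostly not called. Of 10 tested, 1 rose and 0 fell, close to the 12.0% of all tested genes called higher, with a median of 0.96. Cenpa, the H3 variant of centromeres, had 9.68 to 75.1 CPM in metastases and 0.505 to 15.2 CPM in normal lung (3.15 ± 1.04, edgeR adjusted p = 0.0335), and metastasis library 3 lay within the normal range. H3f3b, an H3.3 gene, averaged 316 ± 110 CPM in metastases and 161 ± 45.3 CPM in normal lung (SD, n = 5 each; edgeR adjusted p = 0.0820). H2afy, which encodes macroH2A, averaged 84.3 ± 46.5 CPM in metastases and 66.8 ± 41.7 CPM in normal lung (SD, n = 5 each; edgeR adjusted p = 0.740).

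Of 24 other S phase genes tested, 13 rose in metastases and 0 fell, beside 12.0% of all tested genes called higher and 8.22% lower. All 24 had a positive log2 fold change and the median was 2.82, beside 1.60 for the 13 tested histone genes; for 12 of the 24 every metastasis library was above every normal one, beside 8.50% of all tested genes. The whole list of 25, which includes the untested Gins1, summed to 1033 to 1425 CPM in metastases and 127 to 239 CPM in normal lung. Cdt1, which licenses replication origins, averaged 30.5 ± 36.1 CPM in metastases and 0.302 ± 0.130 CPM in normal lung (SD, n = 5 each; log2 fold change 6.65, edgeR adjusted p = 0.000469). Ccne1, the G1 cyclin E1, had a log2 fold change of 6.56 (edgeR adjusted p = 0.00345). Rrm2 and Rrm1, subunits of ribonucleotide reductase, had values of 6.38 (edgeR adjusted p = 3.8e-07) and 2.94 (edgeR adjusted p = 0.00146). The difference between these genes and the histone genes was not tested.

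**Figure D5:**
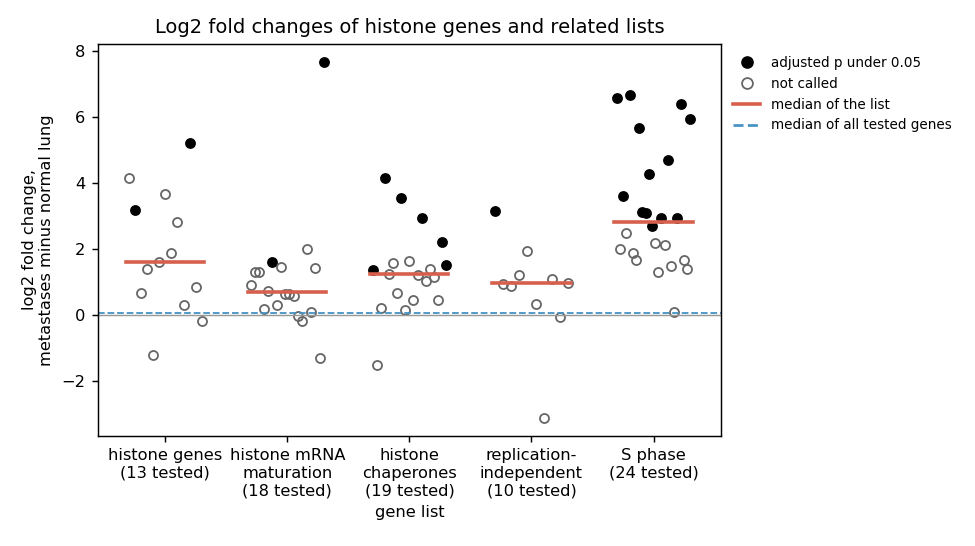
Log2 fold changes, metastases minus normal lung, of the tested histone genes and of 4 lists of related genes; filled points passed the adjusted threshold of 0.05, red lines are medians of a list and the dashed line is the median of all tested genes, 0.06. S phase genes have the highest median, 2.82, and histone genes 1.60 with values from -1.19 to 5.20.

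Markers of other cell types moved with the groups. The counts that follow stand beside 12.0% of all tested genes called higher and 8.22% called lower. Of 15 pan-endothelial markers 12 were lower in metastases, with a summed level of 995 to 6772 CPM in metastases and 11437 to 23622 CPM in normal lung. Fibroblast markers summed to 342 to 927 CPM in metastases and 6.13 to 62.2 CPM in normal lung, with 5 of 6 tested higher. Leukocyte markers summed to 934 to 1768 CPM in metastases and 65.3 to 241 CPM in normal lung, with 4 of 7 tested higher. The platelet genes Pf4 and Ppbp were both higher, and the haemoglobin genes Hbb-bs and Hba-a1 stood at 0. Epithelial markers overlapped, with 23.3 to 148 CPM in metastases and 9.09 to 754 CPM in normal lung. Krt5 was at 0 in all, Krt8 higher and Scgb1a1 lower. Scgb1a1 had 752 and 558 CPM in normal lung libraries 3 and 5. In normal lung libraries 1, 2 and 4 it had 4.99, 3.57 and 23.9 CPM, against 3.40 to 7.10 CPM in metastases. The part of these cell types in the histone results was not tested.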

How the data were processed

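RNA from 5 metastasis and 5 normal lung samples was sequenced in paired reads of 100 bases, per the labels' protocols. Per the submitters' processing notes, reads were handled with DESeq2 1.6.3, HTSeq 0.6.1, Cufflinks 2.2.1 and TopHat2 2.0.13, and builds are named as mm10 and GRCm38; the sources used here do not give the annotation or the use of strand. The authors deposited raw counts, whole numbers for each gene; the HTSeq summary categories, which name no gene, were kept out of library sizes (no feature 57.9 to 73.7% in metastases and 55.4 to 64.7% in normal lung). The authors also deposited FPKM values for 24460 genes, used for levels per length and as an alternative with limma.

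Counts were tested with edgeR 4.0.16 (filterByExpr, TMM, robust quasi-likelihood F test, two-sided) in R 4.3.3, with Benjamini-Hochberg adjustment over 11823 genes and a threshold of 0.05. The common biological coefficient of variation was 1.01, so small changes cannot be seen. The fitting was tested on simulated data. Sequences came from GENCODE M21 and RefSeq; members were matched to RefSeq promoters by symbol or synonym.

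Alternatives were DESeq2 1.42.0, limma 3.58.1 on log2(FPKM + 1) and log2(FPKM + 0.1), other scalings, filters and thresholds, thinning, sets of libraries and leaving out each library. Replicates are separate samples per the labels; where cultures or animals are not named as separate, p-values measure the spread between these samples. The samples of the 2 groups share replicate numbers. The labels do not say that the numbers pair them, and the main test treated them as unpaired.

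The members and all lists were chosen with earlier results of these data known. Described with values per library were the 2 tested members of each type with the highest mean CPM, all tested members of cluster 2, and the 5 with the largest and the 5 with the smallest fold change; of the other lists, the 3 called genes with the largest change, the 2 with the highest CPM and the core processing factors. Hist1h2ak, Hist2h2ac, Hist1h1b, Hist1h1d and the facing pairs were chosen after their values were seen. No coordinates were converted between builds.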

Additional observations from a re-analysis of the deposited data

Results flagged for a closer look

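A single library stood far from the other 4 of its group in 11 of the 38 sets of values checked. The limit used is passed by about 1 in 20 sets when values are normally distributed. The CPM values were not shown to be so, and the 11 are therefore not read as an excess over chance. In metastases, library 3 was the highest for the summed CPM of all members (358 CPM, against 55.7 to 142 in the others), of the H1 genes (171 CPM, against 16.3 to 47.7) and of the H3 genes (42.7 CPM, against 0.639 to 12.2), and for Hist1h1c (169 CPM, against 2.57 to 28.0) and Hist1h3d (41.8 CPM, against 0.261 to 10.5). Metastasis library 1 was the highest for Hist2h2bb, with 14.9 CPM against 0.0496 to 2.23. In normal lung, library 1 was the highest for Hist1h1e (22.6 CPM, against 1.04 to 3.34) and Hist2h4 (19.2 CPM, against 0.104 to 3.53). Library 2 of normal lung had 0.394 CPM of Hist1h1a, which was at 0 in the other 4, and library 4 had 4.30 CPM of Hist1h3d, against 0 to 0.135, and 4.59 CPM of all H3 genes, against 0.0941 to 1.0998. Several of these sets share genes, so they are not independent.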

How the results depend on the processing

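Depth and spread limit these results: 56 of 69 histone genes could not be tested under the filter, and copies that share sequence lose fragments. No histone gene was called lower under any alternative run. Histone genes called higher numbered 11 with DESeq2 (of 30 with an adjusted p, beside 18.3% of all genes), 11 of 13 with scaling to pan-endothelial markers, which called 55.6% of all genes higher, 5 and 9 of 32 with FPKM at a pseudocount of 1 and 0.1 (10.6% and 11.9% of all genes), 0 with FPKM and no filter, 0 at a threshold of 0.01, and 0 in libraries 1 and 2 or 3 to 5 alone. They numbered 1 with a term for libraries 1 and 2 (Hist1h1a, with neither Hist2h2bb nor Hist1h1c called), 1 without metastasis libraries 4 and 5 and 1 after thinning (Hist1h1c), 1 without metastasis libraries 2 and 3 (Hist2h2bb; chosen after seeing the data), and 0 to 2 when each library was left out in turn. Scaling to pan-endothelial markers moved the median log2 fold change of all genes to 2.65, library totals to 0.32, DESeq2 to 0.19, and DESeq2's size factors in edgeR to 0.14, from 0.06.

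The counts that follow, like those above, stand beside these shares of all genes called higher. The share was 55.6% with endothelial scaling, 18.3% with DESeq2 and 14.6% with library totals. It was 12.8% after thinning and also with the term for libraries 1 and 2. Without the filter it was 11.5%, at 0.01 7.35% and with unfiltered FPKM 3.75%. Libraries 1 and 2 alone gave 3.87% and libraries 3 to 5 alone 9.29%. Without metastasis libraries 4 and 5 it was 9.08%, without 2 and 3 10.1%, and without single libraries 10.7 to 11.7%. Maturation genes called higher numbered 5 with DESeq2, 4 after thinning, with the term for libraries 1 and 2 and with library totals, 15 with endothelial scaling, 1 with no filter, at 0.01, in libraries 3 to 5, without metastasis libraries 4 and 5 and with unfiltered FPKM, 0 in libraries 1 and 2, and 1 to 3 leaving out each library. Chaperones numbered 18 with endothelial scaling, 2 at 0.01 and in libraries 1 and 2, 3 without metastasis libraries 4 and 5 and with unfiltered FPKM, and 5 to 8 leaving out each library. Replication-independent genes numbered 2 with library totals and with filtered FPKM, 8 with endothelial scaling, 0 at 0.01, in both sets of libraries and without metastasis libraries 4 and 5, and 0 to 2 leaving out each library. S phase genes numbered 23 with endothelial scaling, 2 in libraries 1 and 2, and 11 to 14 leaving out each library. In the main fit 18 maturation genes, 19 chaperones, 10 replication-independent genes and 24 S phase genes were tested.

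Signs reversed for Hist1h2be with endothelial scaling (1.83), the term for libraries 1 and 2 (0.00049), libraries 3 to 5 (1.59) and FPKM (0.52 and 0.66), for Hist1h2bg (-0.29) and Hist2h2be (-0.24) in libraries 1 and 2, for Hist1h2bc without metastasis libraries 2 and 3 (-0.017), and for Hist1h4d without metastasis libraries 2 and 3 (-0.32) or library 3, the lowest of its values without single libraries (-0.42 to 0.53). Hist2h4 turned positive with library totals (0.024), endothelial scaling (2.08), the term (0.45), libraries 3 to 5 (0.91), without metastasis libraries 4 and 5 (0.48) or 2 and 3 (0.11), with FPKM (0.55 and 0.60), and in 4 of 10 fits without a single library (-1.27 to 1.90 over all 10). None of these passed the threshold. The causes were not tested.

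With the replicate number as a block, 1 of 13 histone genes was called higher, Hist1h1a, beside 12.1% of all genes. Hist2h4 then had a log2 fold change of 0.34. Correlations of same-numbered libraries were 0.0007 to 0.142, and 2 of 5 metastasis libraries correlated best with their own number. Correlations this low cannot decide whether the numbers pair the samples, and the labels do not say that they do.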
